A study of Caenorhabditis elegans with 2 samples.

Results

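The peaks described here are 649 sites of strong eGFP-PEB-1 ChIP-seq signal that lie inside protein-coding genes of the C. elegans autosomes but away from their promoters. They were chosen on the deposited signal: all peaks of chromosomes I to V in the list pooled over both replicates were ranked by peak height, and ranks 1 to 1500 were taken. Of those 1500, 478 had a summit in a promoter window that runs from 1000 bp before to 200 bp past a transcription start site (TSS) of a protein-coding gene, 373 lay between genes, and the remaining 649 lay within a protein-coding gene record. The pooled list holds 30000 peaks, 24067 of them on these 5 chromosomes, and 11522 of the autosomal peaks with ranks over 1500 meet the same criteria of place. Counted over all chromosomes instead, ranks 1 to 1500 gave 466 such peaks. The 11522 are called the weaker in-gene peaks below. Height and rank chose the peaks, so both are given as a description, with no test.

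The series mapped DNA bound by PEB-1 in C. elegans larvae of the second stage (L2) by chromatin immunoprecipitation and sequencing (ChIP-seq). There was 1 group of 2 biological replicates and no comparison group, so no difference between conditions can be tested. Both replicates were whole organisms of mixed sex from strain OP86, which carries unc-119(ed3) on chromosome III and the integrated transgene wgIs86, the source of the eGFP-tagged PEB-1. A control experiment named in the labels was not analysed here. What limits the model is that the tagged protein comes from a transgene of unknown copy number beside whatever the animals make of their own, and that a peak in whole animals cannot tell weak binding in many cells from strong binding in few. The sources used here give no read depth, and the 95% exact (Clopper-Pearson) intervals of shares, in brackets, cover counting over peaks only.

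PEB-1 binds DNA through a FLYWCH zinc finger and is known for its site in an enhancer of myo-2, the myosin gene of pharyngeal muscle. It is a nuclear protein of the pharynx and of other tissues, and worms that lack it feed poorly and fail in molting. Factors that bind within genes can do so at enhancers in introns, at internal promoters that make shorter isoforms, or at small RNA genes that lie inside a host gene.

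Windows of 121 bp around the summit of some of the strongest peaks of the 3 commonest kinds show what the sites look like. All are ce11 (WBcel235), plus strand, from the RefSeq genome. Capitals mark the PEB-1 core, which is TGCC preceded by any base but C and followed by A or G, and GAGAGA, each on either strand. The core on the minus strand therefore reads as TGGCAC in the lin-42 window, and GAGAGA as TCTCTC in the Y111B2A.12 window.

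There are 6 windows in introns and 3 each in coding exons and in exons of non-coding RNA genes.
lin-42 (chrII:1238027-1238147, intron): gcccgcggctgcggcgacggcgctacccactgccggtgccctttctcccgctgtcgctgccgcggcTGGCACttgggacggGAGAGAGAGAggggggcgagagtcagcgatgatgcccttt
pqn-41 (chrIII:1925278-1925398, intron): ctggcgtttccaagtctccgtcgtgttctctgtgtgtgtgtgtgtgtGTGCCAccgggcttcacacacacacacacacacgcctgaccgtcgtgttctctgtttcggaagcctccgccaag
miz-1 (chrIV:10817191-10817311, intron): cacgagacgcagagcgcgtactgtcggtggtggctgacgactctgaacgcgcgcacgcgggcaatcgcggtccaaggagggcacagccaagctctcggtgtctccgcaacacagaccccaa
Y111B2A.12 (chrIII:12612702-12612822, intron): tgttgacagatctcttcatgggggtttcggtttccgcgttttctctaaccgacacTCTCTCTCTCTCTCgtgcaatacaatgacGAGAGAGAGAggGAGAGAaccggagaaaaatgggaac
spsb-1 (chrII:15203848-15203968, intron): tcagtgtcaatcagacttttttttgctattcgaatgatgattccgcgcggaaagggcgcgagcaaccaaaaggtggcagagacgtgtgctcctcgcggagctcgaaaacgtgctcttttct
gei-4 (chrIII:349824-349944, intron): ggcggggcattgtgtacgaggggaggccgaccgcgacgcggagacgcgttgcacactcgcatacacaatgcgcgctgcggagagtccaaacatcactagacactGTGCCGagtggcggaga
frm-7 (chrV:12303504-12303624, coding exon): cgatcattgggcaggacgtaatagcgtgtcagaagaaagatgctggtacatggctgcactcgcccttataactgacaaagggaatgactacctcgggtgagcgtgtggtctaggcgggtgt
dpy-27 (chrIII:3818138-3818258, coding exon): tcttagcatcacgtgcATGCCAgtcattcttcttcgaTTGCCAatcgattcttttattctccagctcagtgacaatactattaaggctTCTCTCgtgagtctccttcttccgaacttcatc
C23H3.2 (chrII:63617-63737, coding exon): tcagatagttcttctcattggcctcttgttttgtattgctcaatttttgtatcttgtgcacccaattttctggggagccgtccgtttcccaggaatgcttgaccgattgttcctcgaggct
T28B11.1 (chrV:10717212-10717332, exon of a non-coding RNA gene): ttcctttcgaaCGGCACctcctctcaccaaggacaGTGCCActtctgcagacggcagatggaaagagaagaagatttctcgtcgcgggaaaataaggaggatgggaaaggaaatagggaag
F59G1.4 (chrII:5901796-5901916, exon of a non-coding RNA gene): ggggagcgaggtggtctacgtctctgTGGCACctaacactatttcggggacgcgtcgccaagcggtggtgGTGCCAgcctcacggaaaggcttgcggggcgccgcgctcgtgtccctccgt
Y55F3BR.2 (chrIV:867127-867247, exon of a non-coding RNA gene): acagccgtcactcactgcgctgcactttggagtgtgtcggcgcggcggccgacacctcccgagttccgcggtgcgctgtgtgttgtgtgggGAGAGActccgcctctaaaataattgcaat
The lin-42 window holds 1 core and 3 overlapping matches of GAGAGA, and that of Y111B2A.12 holds 9 overlapping matches of GAGAGA and no core. The windows of T28B11.1 and F59G1.4 each hold 2 cores and no GAGAGA. Neither motif is in the windows of miz-1, spsb-1, frm-7 and C23H3.2, and alternating GT and AC runs flank the core of pqn-41.

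Heights fell off steeply within the 649 peaks. They ran from 19.9 to 113 with a median of 22, on a scale that the sources do not state. Only 6 peaks were above 50, 44 were between 30 and 50, and 599 were at 30 or lower. At the limit the values were continuous. The last 3 peaks inside it, in cutl-15, fbxb-96 and npp-13, had heights of 19.95, 19.94 and 19.94 (ranks 1497, 1498 and 1500), and the first 3 outside it, in T26H5.8, C04E6.8 and M04G7.1, had 19.94, 19.93 and 19.93 (ranks 1501, 1502 and 1505). The list that the authors thresholded by the irreproducible discovery rate (IDR), a measure of how well peak ranks recur, holds 22 of the 649. It holds 99 autosomal peaks in all, 0.411% of the 24067, but it consists of peaks high in the pooled ranking, so that this count follows from the choice of peaks.

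**Figure D1:**
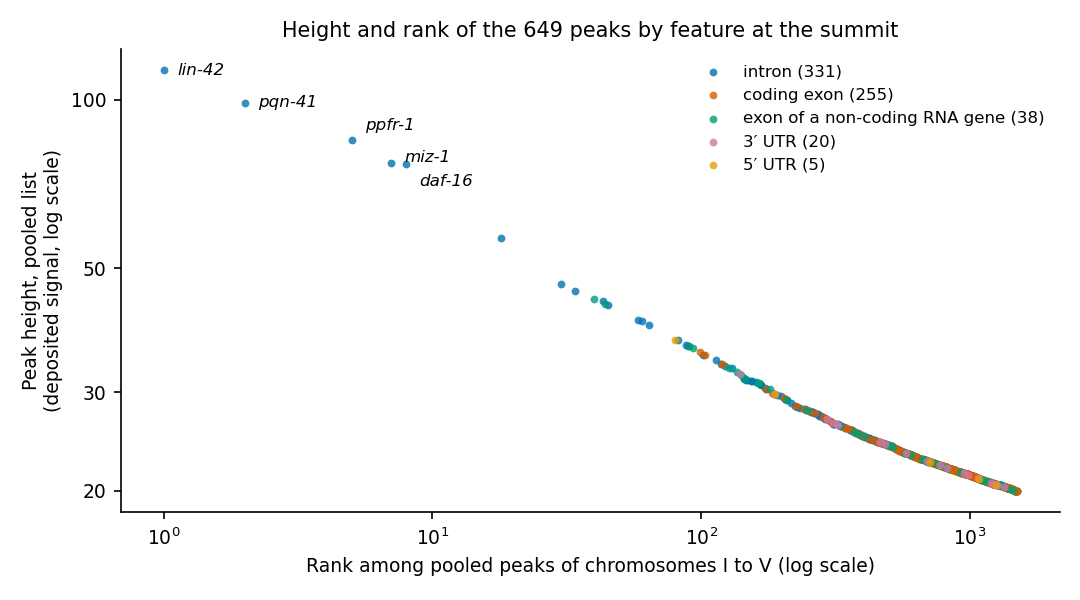
Peak height in the pooled list against rank among peaks of chromosomes I to V, both on log scales, with 1 point for each of the 649 peaks, coloured by the annotated feature at the summit. The 6 peaks above 50 are all intronic, and heights come down to 19.9 at rank 1500.

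The strongest sites lay in long introns and recurred at high rank in both replicates. The highest was in intron 6 of 9 of lin-42, which encodes the worm homologue of the Period clock protein and sets the timing of larval stages and molts. Its height was 113 in the pooled list, 91.8 in replicate 1 (rank 1) and 22 in replicate 2 (rank 9). Ranks in all lists are counted over chromosomes I to V. The second highest lay in a 10372-bp intron of pqn-41, a gene for a glutamine-rich protein that promotes linker cell death in males, with heights of 98.8 pooled, 66.5 in replicate 1 (rank 4) and 31.3 in replicate 2 (rank 1). Both were thus among the 10 highest autosomal peaks of either replicate, although their order differed.

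The next were ppfr-1, miz-1 and daf-16. In ppfr-1, a gene for a regulatory subunit of protein phosphatase PP4, the peak (chrI:9381220-9381575) had heights of 84.8 pooled, 56 in replicate 1 and 30.3 in replicate 2 (ranks 9 and 2). In miz-1 the heights were 77.2 pooled, 61.3 and 16.4 (ranks 5 and 61). In daf-16, which encodes the FOXO transcription factor of insulin signalling, the peak (chrI:10769811-10770166) had heights of 76.7 pooled, 53.5 and 23.6 (ranks 10 and 6). All 3 lay in long introns, of 10404, 8501 and 7676 bp. Y111B2A.12 followed with 56.7 pooled, 43.1 and 17.1 (ranks 15 and 42), and spsb-1, a gene for a protein with SPRY and SOCS box domains, with 46.9 pooled, 29.6 and 17.4 (ranks 53 and 37).

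Beside these 7, the peak in F59G1.4 was the only other site ranked within 100 in both replicate lists. It had a height of 43.1 pooled, 27.7 in replicate 1 (rank 68) and 19.1 in replicate 2 (rank 19). Its summit (chrII:5901856) lay 398 bp upstream of the precursor of the microRNA lin-4 (chrII:5902254-5902347, plus strand), which is encoded inside F59G1.4 and switches off early larval programmes. A second, overlapping peak in F59G1.4 (rank 575) has its summit 192 bp upstream of lin-4 and overlaps the same replicate peaks, so that the pair is not backed by separate peaks in the replicates. In all, 14 of the 649 overlapped another of them, and 642 were left when only the stronger of each overlapping set was kept.

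Among the other peaks of the highest ranks were several that depended on 1 replicate. The gcn-1 peak (rank 64, height 39.5), in a gene for a translation regulator and 270 bp upstream of the microRNA gene mir-229, had a height of 34.6 in replicate 1 (rank 33) and overlapped no peak of replicate 2. The same held for pxn-1, a peroxidasin gene (rank 93, height 36, rank 63 in replicate 1). The peak in herc-1 (rank 34) ranked 27 in replicate 1 and 4929 in replicate 2, that in gei-4 (rank 43) 35 and 5825, and that in frm-7 (rank 99), a FERM-domain gene, 59 and 10696. The reverse was seen in a coding exon of dpy-27, which encodes a condensin subunit of X-chromosome dosage compensation: pooled height 34.9, 12.1 in replicate 1 (rank 1993) and 24 in replicate 2 (rank 5).

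The rest of the 25 highest-ranked peaks lay between these cases. In zfp-1, a chromatin regulator related to human AF10, the peak (height 43) ranked 44 in replicate 1 and 1001 in replicate 2. The peaks in rege-1, the worm Regnase-1 gene, and in ptr-18, a Patched-related gene, had heights of 40.5 and 40.3 and ranked 113 and 70 in replicate 1, 307 and 802 in replicate 2. Those in T28B11.1, C54G6.3, F53E4.1 and Y55F3BR.2 had heights from 36.2 to 44.1 and were within rank 500 of both lists, as was the further peak of spsb-1 (rank 114, height 34.2). The peaks in F22D3.4, K10C3.4 and bed-3, a gene for a BED zinc finger protein needed for molting, had heights of 37.2, 36.4 and 35.0 and had ranks of 158, 41 and 148 in the first replicate against 3149, 4471 and 1693 in the second.

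Over all 649 peaks, overlap with a replicate's list was common but high rank in both was rare. A peak of replicate 1 was overlapped by 627 (96.6%), a peak of replicate 2 by 583 (89.8%), and both by 561 (86.4%). There were 0 peaks without either (upper bound of the exact interval 0.567%). Each replicate list is itself 30000 peaks long and the pooled list was made from both replicates, so this overlap is not an independent check. Of the weaker in-gene peaks, 30.2% overlapped a peak in both lists. Within rank 1500 of a replicate list were 288 of the 649 for replicate 1 and 222 for replicate 2. Only 58 (8.94%; 6.86-11.4) were within that rank in both, 230 in replicate 1 alone, 164 in replicate 2 alone and 197 (30.4%) in neither. Of the strong promoter and intergenic peaks, 12.8% and 13.4% were within that rank in both, and 22.4% and 23.1% in neither. These differences between kinds of peak were not tested.

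**Figure D2:**
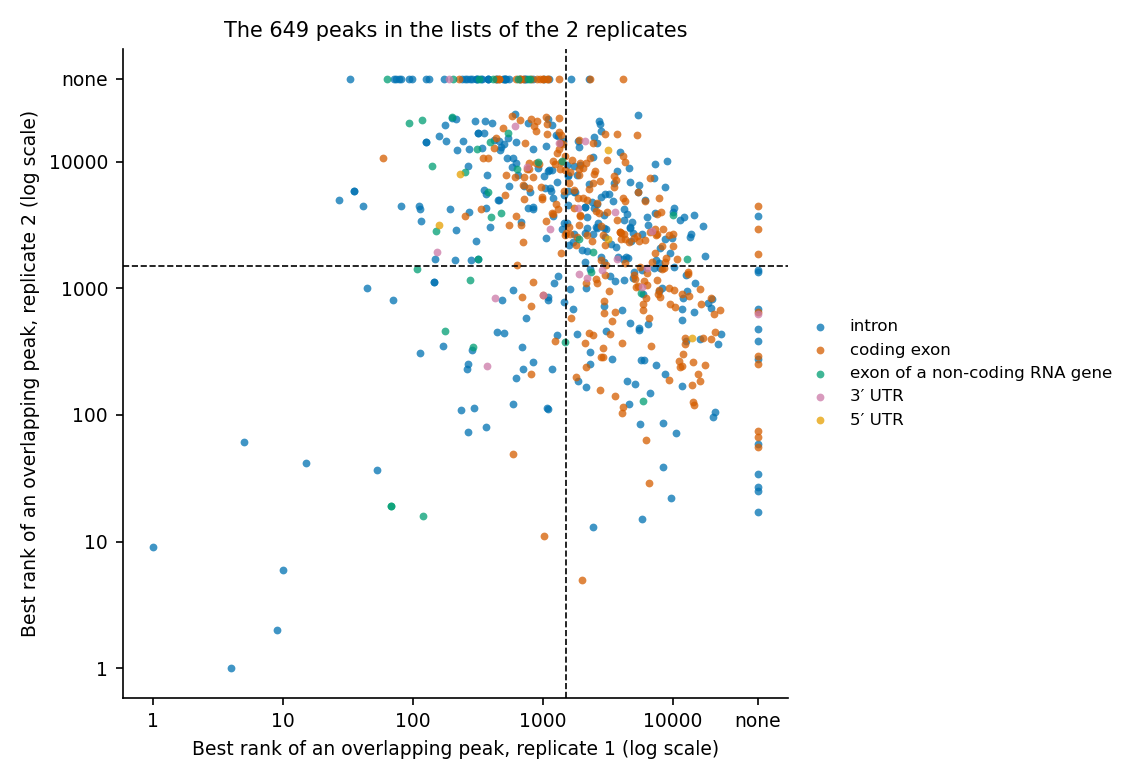
Best rank of an overlapping peak in replicate 1 (x axis) and in replicate 2 (y axis), both on log scales, for each of the 649 peaks, coloured by feature, with dashed lines at rank 1500 and peaks without overlap set at "none". The 58 peaks in the lower left corner were within rank 1500 in both lists, and the bulk of the points lies beyond that rank in at least 1 list.

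Few of the 58 peaks high in both lists lay in coding exons. Their median height was 29.2, 15 of them were in the thresholded list, and only 8 (13.8%; 6.15-25.4) had the summit in a coding exon. That share was 33% of the 230 peaks high in replicate 1 alone, 50% of the 164 high in replicate 2 alone and 45.2% of the 197 high in neither. These groups were formed from ranks that also enter the pooled height, so the shares are a description. Among the 58 were further peaks in genes of larval timing and molting: sea-2 (height 31.8, ranks 366 and 81), lin-29 (29.2, ranks 441 and 449) and myrf-1 (31.6, ranks 742 and 583). The peaks of the molting genes nhr-23 (ranks 194 and 4218) and mlt-7 (none and 1387) were not. Peaks in other genes, such as saeg-1 (ranks 293 and 114) and ccr-4 (503 and 440), were among the 58 as well. The share of timing and molting genes among the 58 was not set against that of other peaks.

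By annotated feature, 331 summits lay in introns, 255 in coding exons, 38 in exons of non-coding RNA genes, 20 in 3′ UTRs and 5 in 5′ UTRs. Coding exons held 39.3% (35.5-43.2) of the strong peaks and 46.7% (45.8-47.6) of the weaker in-gene peaks. This lower share passed the test (odds ratio 0.739, 0.629-0.869; two-sided Fisher's exact test, Benjamini-Hochberg adjusted exact p = 0.000572 over 5 classes). Introns held 51% against 47.4%, which did not pass (odds ratio 1.16, 0.988-1.36; adjusted exact p = 0.126). Peaks are not replicates, so these p-values describe the peaks of this experiment. In the list of replicate 2 used alone, the coding exon share was 46.5% of the strong and 43.9% of the weaker peaks (adjusted exact p = 0.294) and the intron share 47.0% against 50.3%, the opposite directions. In the list of replicate 1 alone the coding exon shares were 37.9% and 47.1% (adjusted exact p = 2.75e-05).

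Non-coding RNA genes inside the hosts took a higher share of strong than of weaker peaks in their exons, also in each replicate's list. They held 38 summits (5.86%; 4.18-7.95) against 0.929% of the weaker in-gene peaks (odds ratio 6.63, 4.54-9.69; adjusted exact p = 4.19e-16). The shares were 6.24% against 1.05% in the list of replicate 1 alone (adjusted exact p = 3.69e-15) and 2.49% against 0.981% in that of replicate 2 alone (adjusted exact p = 0.00501). The annotated class was ncRNA for 31 of the 38 summits, snoRNA for 5, tRNA for 2, snRNA for 1 and antisense RNA for 1, where a summit in overlapping genes counts for each. The 3 strongest lay in T28B11.14 within T28B11.1 (height 44.1), in F59G1.12 within F59G1.4, and in Y55F3BR.17 within Y55F3BR.2 (height 36.2). Summits in snoRNA genes, whose RNAs guide the chemical modification of ribosomal RNA, included ZK994.7 within pxn-1 and R166.7 within mnk-1, a kinase gene of the MAP kinase pathway.

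The criterion of place used starts of protein-coding genes only, so a summit could lie beside the start of a non-coding gene. For 101 of the 649 (15.6%; 12.9-18.6) the nearest start of any gene was that of a non-coding gene, with the summit inside the same window of 1000 bp before to 200 bp past it, against 9.47% (8.94-10) of the weaker in-gene peaks. Leaving out piRNA genes, which are numerous and short, the shares were 13.3% and 5.80%. Starts of snoRNA genes accounted for 15 peaks (2.31%), against 0.425% of the weaker. In ranks 1 to 250 there were 23 such peaks among 70 (32.9%; 22.1-45.1). These shares were added after the values were seen and carry no test.

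The make-up changed with rank inside the set. In ranks 1 to 250 only 70 of the 250 peaks (28%) were in-gene peaks, and of these 62.9% were intronic, 18.6% in exons of non-coding RNA genes and 12.9% in coding exons. In ranks 251 to 500 the in-gene share was 41.6%, with 61.5% of the summits intronic and 26.9% in coding exons. From rank 501 on the in-gene share was 47.4% and 47.6% in the 2 ranges up to 1500, and coding exons held 46.8% and 45%, close to the 47.6% of ranks 1501 to 3000.

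**Figure D3:**
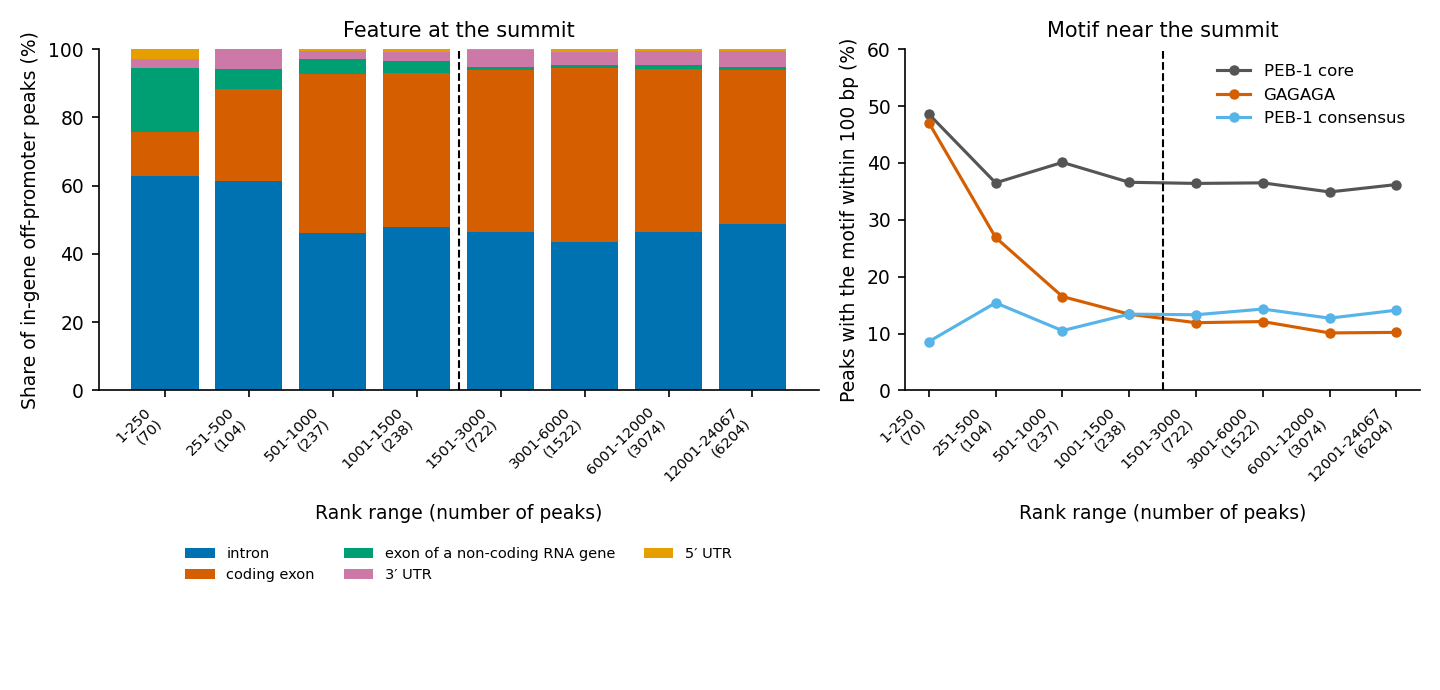
Share of in-gene off-promoter peaks by annotated feature (left, stacked bars to 100%) and with each motif within 100 bp of the summit (right, lines), in 8 ranges of rank, with the number of peaks in brackets and a dashed line at rank 1500. Coding exons rise from 12.9% to 46.8% over the first 3 ranges while GAGAGA falls from 47.1% to 16.5%, and both stay nearly level beyond rank 1500.

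Some of the peaks lay ahead of an internal start of their own host gene. A summit was counted where the nearest protein-coding start belonged to its host and lay downstream of it, beyond the 1000 bp left out by the choice of peaks. This was so for 78 of the 649 (12%; 9.62-14.8) against 5.49% (5.08-5.92) of the weaker peaks, and for 67 of the 331 intronic peaks (20.2%; 16.1-25) against 9.42%. The distance to that start was 1890 bp at the median for strong and 2066 bp for weaker peaks. In ranks 1 to 250 the count was 24 of 70 (34.3%; 23.4-46.6). The lin-42 summit lay 1118 bp upstream of an internal lin-42 start, the pqn-41 summit 2333 bp, the daf-16 summit 1519 bp and the gei-4 summit 1451 bp. No test was made of these shares. Strong peaks also lay in longer hosts (median 6.32 against 5.07 kb) and longer introns (1636 against 801 bp). What part length had in these shares was not tested.

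The host genes were long, which the choice of peaks itself favours. Sequence near protein-coding starts was left out, so short genes had little room for such a peak. How much this adds to the contrasts with all genes was not tested. The 649 peaks lay in 581 genes, 3.37% of the 17242 autosomal protein-coding genes, and 13 peaks lay in more than 1 host. The median host was 5.53 kb long against 1.96 kb for all autosomal protein-coding genes, and 29.1% of hosts against 4.90% of all genes exceeded 10 kb. The share of genes that held a strong peak rose with length, from 0.899% of genes up to 2 kb to 3.32%, 7.76% and 16% of those of 2 to 5, 5 to 10 and 10 to 20 kb and to 35.7% of those over 20 kb. Hosts of weaker peaks had a median of 3.34 kb. Taken per peak, the host was 6.32 kb long at the median for strong and 5.07 kb for weaker peaks.

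Place within the host is given as a description, with no test. The nearest protein-coding start was 1490 bp away at the median, against 1502 bp, and the median place was 50.7% against 53% of the way along the gene. The last 20% of the host held 16.2% (13.4-19.2) of strong and 20.3% (19.5-21) of weaker summits. Introns that held a strong summit were longer, with a median of 1636 bp against 801 bp, and 56.7% (51.1-62.1) of them against 42.9% (41.6-44.2) exceeded 1000 bp. The first intron of the longest transcript held 26.1% (21.4-31.2) of strong and 20.5% (19.4-21.6) of weaker intronic peaks. With replicate 2's list alone that share was 20.6%.

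Several genes held more than 1 of the peaks. There were 522 hosts with 1 peak, 44 with 2, 9 with 3, 4 with 4 and 2 with 5. Overlapping peaks, as in F59G1.4, Y48C3A.5 and hmr-1, are counted singly here, so these are not numbers of separate sites. The 4 peaks of lin-42 lay over 13.1 kb in 4 kinds of feature: the intron peak of rank 1, and peaks in F47F6.15, a non-coding RNA gene (height 32.2, rank 141), in a 3′ UTR (29.8, rank 187) and in a 5′ UTR (29.8, rank 189). In pqn-41 the 3 peaks lay in the same intron over 2.84 kb, with heights of 29.5, 98.8 and 30.6. In daf-16 they lay over 14.6 kb, with heights of 22.6, 29.1 and 76.7. The 3 peaks of zfp-1 had heights of 43, 33.7 and 28.4, and the 4 of egl-27, which encodes an MTA-type chromatin protein, had 22.5, 21.6, 25.4 and 31.4.

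Apart from F59G1.4, whose 3 peaks had heights of 27.1, 43.1 and 23.4, the other genes with 3 or more peaks had no height above 31.1. The 5 peaks of dig-1, a gene for a giant adhesion protein of the extracellular matrix, spread over 45.3 kb and had heights from 20.1 to 21.6. The 5 of Y48C3A.5 had 21.3 to 28 over 16 kb. They include overlapping pairs about 200 bp apart, and each pair overlaps the same replicate 1 peak. The 4 of hmr-1, the cadherin gene, had 20.5 to 26.2 over 8.40 kb, all in intron 21. They ranked from 201 to 763 in replicate 1 but from 16650 to 22040 in replicate 2. An overlapping pair among them shares its peak in each replicate. The 4 of mnk-1 had heights from 20.4 to 31.1, and the 3 each of fkh-7, a forkhead gene, tir-1, the worm SARM gene, daf-5, a Ski-related gene of dauer formation, unc-22, the twitchin gene of muscle, and lir-1, related to lin-26, had heights from 20.7 to 31.1.

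**Figure D4:**
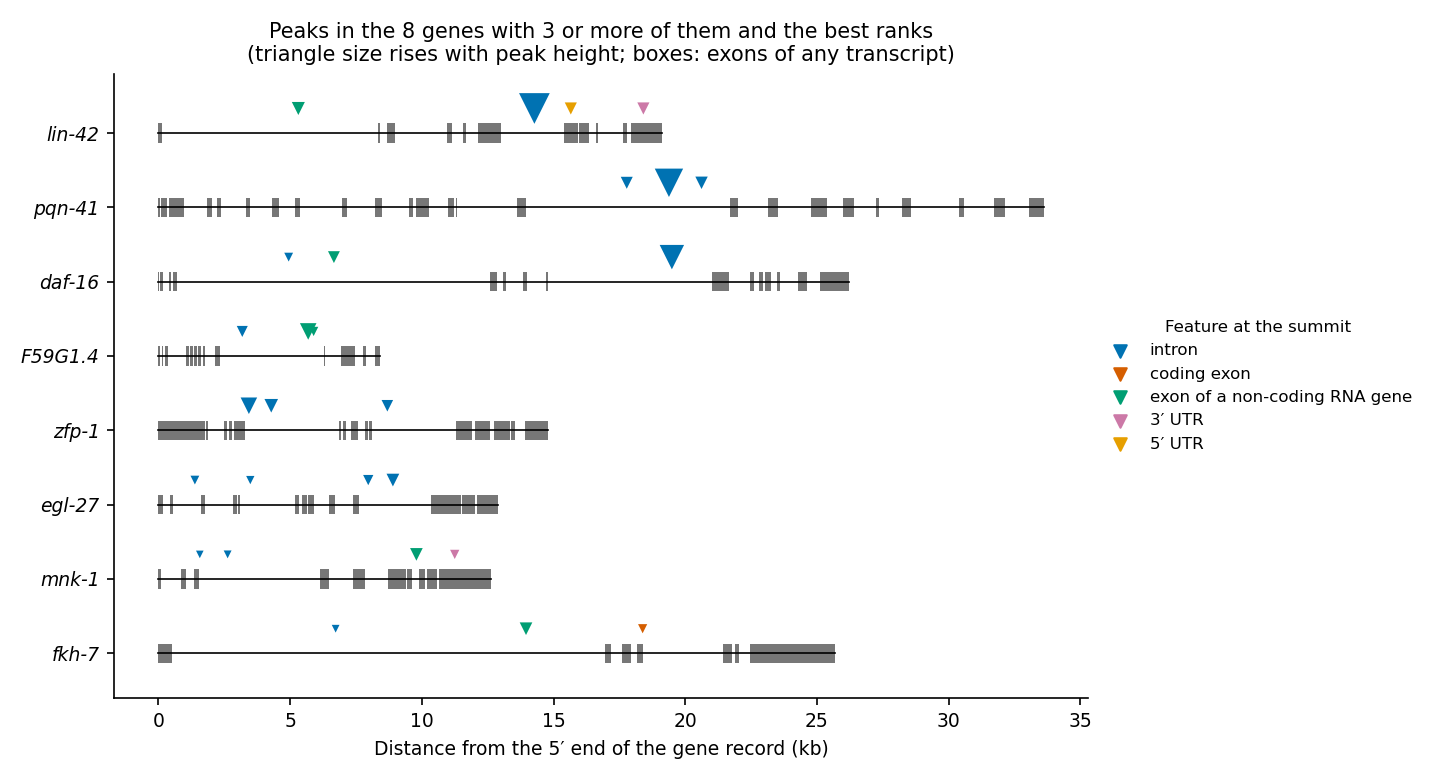
Place of the peaks (triangles, area by height, coloured by feature) along 8 host genes with 3 or more of them, in kb from the 5′ end of the gene record, with grey boxes for exons of any transcript. The largest triangles, of lin-42, pqn-41 and daf-16, stand in long introns, 14272, 19380 and 19491 bp from the 5′ end of the record.

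Counts over gene lists are given beside the 3.37% of all autosomal protein-coding genes that held a strong peak. Since that share rose with gene length, the median length is given for several lists. The lists were made with earlier results of these data known, so they are read as a description. Of 14 autosomal heterochronic genes, which time larval development, 4 held strong peaks (median length of the list 6.49 kb): lin-42, sea-2, the zinc finger gene lin-29 and the F-box gene dre-1, with best heights of 113, 31.8, 29.2 and 22. A weaker in-gene peak was in 12 of these 14. Of 24 molting and apical matrix genes 4 held a strong peak (lin-42, myrf-1, nhr-23 and mlt-7, median 5.35 kb). So did 2 of 10 insulin signalling genes (daf-16 and daf-2, median 6.45 kb) and 2 of 15 TGF-β genes (daf-5 and daf-7, median 3.97 kb). Of 18 EGF and Ras genes 4 did (mpk-1, ksr-2, sos-1 and lin-31, median 9.2 kb). For comparison, 7.76% of all genes of 5 to 10 kb held a strong peak. Of 18 pharyngeal genes 2 held a strong peak, eya-1 and myo-1.

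Among lists of neural and muscle genes the counts ran as follows. Of 46 axon guidance and adhesion genes 10 held strong peaks (21.7%, median 12.7 kb), led by vab-1, the Eph receptor gene (height 27.4), hmr-1, unc-73 and fmi-1. In replicates 1 and 2 the vab-1 peak ranked 1090 and 811, and an unc-73 peak 1167 and 229. The best hmr-1 peak ranked 201 and 22040, and the peaks of sax-7 and rig-6 overlapped no replicate 1 peak. Strong peaks were also held by 4 of 29 ion channel genes (median 12.6 kb), egl-19, tag-180, unc-80 and exp-2, which is 13.8%, below the 16% of all genes of 10 to 20 kb. The same was true of 2 of 45 neurotransmitter receptor genes (median 4.78 kb), glr-2 and gbb-2, and of 6 of 39 muscle genes (median 6.59 kb), led by unc-22, myo-1, myo-5 and unc-87. For chromatin regulators it was 6 of 64, with zfp-1, let-526, chd-7 and let-418 first, for RNA-binding regulators 3 of 55 (gld-2, mex-5 and asd-1), and for Wnt and Notch genes 1 of 25 (lit-1) and 1 of 13 (lag-1).

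Several families of short genes were below the share of all genes. Of all genes up to 2 kb, however, only 0.899% held a strong peak. Of 1276 chemoreceptor genes (median 1.64 kb) 16 held a strong peak (1.25%), of 305 F-box genes 4 (1.31%), and of 237 C-type lectin genes 1 (0.422%). Beside the genes up to 2 kb, the first 2 shares were higher and the third lower. Of the collagen genes (median 1.24 kb) 4 did, or 3.1%, near the share of all genes and above that of genes up to 2 kb. None of 106 neuropeptide genes (median 0.970 kb) did. Among transcription factor families the counts were 11 of 246 nhr genes, 1 of 45 ceh genes (ceh-32), 1 of 19 hlh genes (hlh-30), 1 of 12 zip genes (zip-9), 1 of 5 fkh genes (fkh-7) and 1 of 22 ztf genes (ztf-8). Among channels they were 2 of 34 twk genes and 0 of 38 lgc genes. Of 76 ribosomal protein genes 2 did (rpl-3 and rps-16), and of 67 cyp genes 2.

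The 2 motifs behaved differently. The motif tests were chosen with earlier results of these data known, so their p-values are not an independent check. GAGAGA lay within 100 bp of 132 of the 649 summits (20.3%; 17.3-23.6) against 10.5% (9.96-11.1) of the weaker in-gene summits (odds ratio 2.17, 1.78-2.66; two-sided Fisher's exact test, adjusted exact p = 3.26e-12 over 3 motifs). The PEB-1 core lay near 254 (39.1%; 35.4-43) against 35.9% (odds ratio 1.15, 0.976-1.35; adjusted exact p = 0.152). The longer consensus, recalled from published binding work as the core with C or T before it and A or T after it, was near 79 (12.2%; 9.76-14.9) against 13.7% (adjusted exact p = 0.29). Of 410713 windows of 201 bp that tile the autosomes, 10.1% held GAGAGA, 32.3% the core and 12.6% the consensus. For the core, the interval of the odds ratio reaches up to 1.35, so a moderate difference is not shown to be absent.

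Against their own surroundings, summits held more GAGAGA on either side, and for the core the difference passed the test on 1 side only. The sides follow genome coordinates, not the strand of the gene, and were not tested against each other. In windows centred 500 bp away the GAGAGA share was 10.9% toward lower and 11.6% toward higher coordinates (exact two-sided McNemar test, adjusted exact p = 1.07e-05 and 5.9e-05). For the core it was 31.1% and 34.7%, both below the 39.1% at summits (adjusted exact p = 0.0035 and 0.147), and for the consensus 13.6% and 12% (adjusted exact p = 0.507 and 1).

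GAGAGA was less common at strong in-gene sites than at strong sites elsewhere. Its share was 27.6% at the 478 promoter peaks (odds ratio of in-gene to promoter 0.669, 0.507-0.883; Fisher's exact test, adjusted exact p = 0.0164) and 37.5% at the 373 intergenic peaks (odds ratio 0.425, 0.320-0.564; adjusted exact p = 1.03e-08). Core shares there were 42.1% and 39.1%, and neither differed past the threshold from the 39.1% of in-gene sites (adjusted exact p = 0.327 and 1). The median GC content was 42.3% at promoter and 42.8% at intergenic peaks, against 40.8% at in-gene sites, and its part in this difference was not tested. Both motifs were near 56 of the 649 summits (8.63%) and neither was near 319 (49.2%).

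In the pooled list the difference in GAGAGA passed the test in introns and not in coding exons. Of the 331 intronic summits 23.9% held it against 9.99% of the weaker intronic summits (odds ratio 2.82, 2.16-3.69; adjusted exact p = 2.77e-11 over 15 tests). The intronic difference did not pass with replicate 2's list alone (11.8% against 9.12%, Fisher's exact p = 0.102) or in windows of 30 to 40% GC (10.8% against 8.77%, Fisher's exact p = 0.443). Of the 255 summits in coding exons 10.6% held it against 10.2% (odds ratio 1.04, 0.693-1.57; adjusted exact p = 0.892). The odds ratio in introns was 2.71 times that in coding exons, with an interval of 1.66 to 4.42. In non-coding RNA exons the share was 42.1% against 19.6% (adjusted exact p = 0.046), and all 5 summits in 5′ UTRs held it, against 15.9% of the weaker (adjusted exact p = 0.00203). The core showed no such difference between introns and coding exons (ratio of odds ratios 1.01, 0.720-1.43).

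Base composition and the replicate moved with GAGAGA. The median GC content of the 201-bp window was 40.8% for strong and 37.8% for weaker in-gene peaks, and in introns it was 40.3% against 35.3%. Among windows of 30 to 40% GC, 10.7% of strong and 9.42% of weaker peaks held GAGAGA (adjusted exact p = 0.6), while above 40% GC the shares were 29% and 13.8% (adjusted exact p = 4.93e-12). With the list of replicate 1 alone they were 23.1% and 11.2% (adjusted exact p = 7.05e-15), and with that of replicate 2 alone 11.9% and 10.1% (adjusted exact p = 0.192). By recurrence, 34.5% of the 58 peaks high in both lists held it, 28.7% of those high in replicate 1 alone, 11.6% of those high in replicate 2 alone and 13.7% of those high in neither. What part GC content or replicate 1 had in the difference was not tested.

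**Figure D5:**
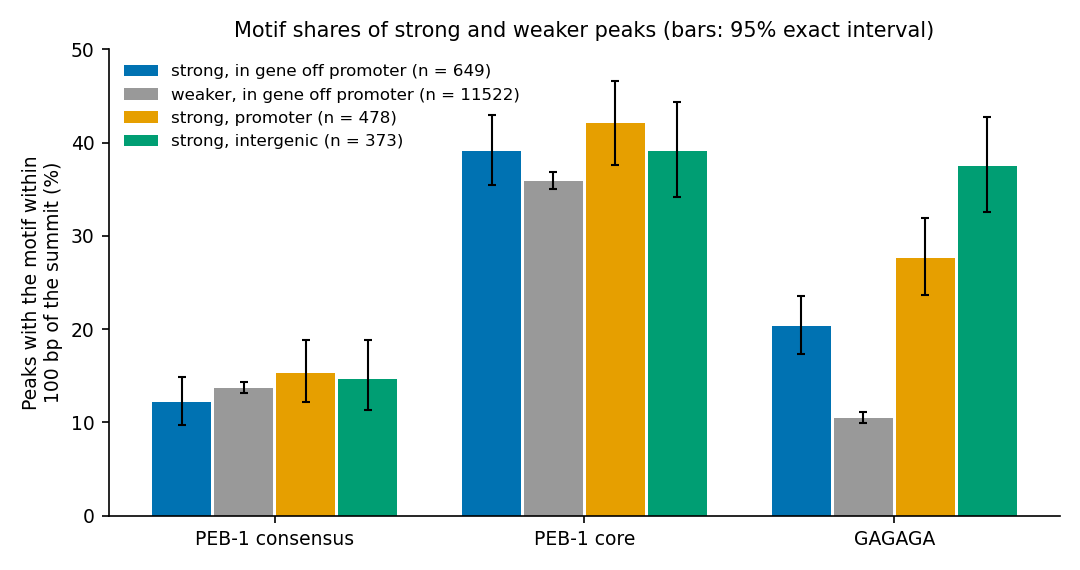
Share of summits with GAGAGA, the PEB-1 core or the PEB-1 consensus within 100 bp, for strong and weaker in-gene peaks and for strong promoter and intergenic peaks, with 95% exact intervals. GAGAGA stands at 20.3% for the strong in-gene peaks, between 10.5% for the weaker and 37.5% for the strong intergenic peaks, while the core lies between 35.9% and 42.1% in all sets.

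GAGAGA also followed rank, whereas the core and the consensus did not change steadily with it. In ranks 1 to 250 GAGAGA was near 47.1% of the summits and the core near 48.6%, with a median GC content of 48.0%. In ranks 1001 to 1500 these values were 13.4%, 36.6% and 39.3%. In ranks 251 to 500 and 501 to 1000, GAGAGA was at 26.9% and 16.5% and the core at 36.5% and 40.1%. The consensus was at 8.57%, 15.4%, 10.5% and 13.4% in the successive ranges up to rank 1500. Since ranks 1 to 250 hold only 70 peaks, the core share there has a wide margin and was not tested against the rest.

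The peaks were spread over all 5 chromosomes. Chromosome I held 113, II 147, III 120, IV 113 and V 156, which is 7.50, 9.62, 8.71, 6.46 and 7.46 per Mb. In the same order these are 17.4%, 22.7%, 18.5%, 17.4% and 24% of the strong peaks. The weaker in-gene peaks had 20.1%, 18.7%, 18.9%, 18.7% and 23.6% there, and the differences were not tested. Soft-masked repeats covered over 50% of 7.86% of the strong and 16.3% of the weaker peaks.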

How the data were processed

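The 2 replicates formed 1 group, numbered as in the labels. The authors deposited peak lists in ce11 coordinates: 1 relaxed list of 30000 peaks per replicate, 1 for both pooled and 1 thresholded by IDR. Aligner, peak caller and versions: not given in the sources used here. Peak height is the signal column as deposited; a score column as deposited, by the file format a transformed q-value but below 0 for most pooled peaks, only broke ties. The summit is the deposited offset plus the peak start. Lists in ce10 coordinates and signal tracks were not used here.

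Genes came from Ensembl release 115 (WBcel235), with every transcript's start as a TSS. Symbols missing there were filled from RefSeq for 1953 genes. Each summit got 1 feature class, with coding sequence before UTRs, UTRs before non-coding RNA exons and these before introns. Where genes overlapped, the host with the nearest start stood for the peak. Overlap meant at least 1 bp. Motifs were looked for on both strands within 100 bp of the summit. Fisher's exact and McNemar tests (scipy 1.17.1, Python 3.11.15) were adjusted by Benjamini-Hochberg with a threshold of 0.05, and the code was tested on simulated data first. Intervals of odds ratios are normal on the log scale.

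The peaks, gene lists and tests were chosen with earlier results of these data known. Named genes are hosts of the 25 highest-ranked peaks, hosts of 3 or more, up to 4 hosts per gene list, the peaks at the rank limit, the 3 strongest per feature class, those ranked within 100 in both replicates and the strongest that overlap no peak of a replicate. Alternatives changed the rank limit, promoter window, motif window, overlap and list.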

Additional observations from a re-analysis of the deposited data

How the results depend on the processing

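No paired analysis was possible because there was 1 group. Rank limits of 750 and 3000 gave 290 and 1371 peaks in place of 649, and 1 replicate's list alone gave 593 to 722. Ranks counted over all chromosomes gave 466, promoter windows of 500 or 2000 bp upstream 731 or 456, starts of non-coding genes included 527, and starts of gene records only 743. At limit 750 the intron share was 57.6% and passed (adjusted exact p = 0.000912). At limit 3000 the coding exon share was 43.7% and no longer passed (adjusted exact p = 0.103), and the 5′ UTR share fell below that of the weaker peaks at 0.511%. With the promoter window of 2000 bp upstream to 500 bp downstream the coding exon share was 40.4% and no longer passed (adjusted exact p = 0.0716). With 1 replicate's list alone the shares ran from 47% to 51.4% for introns, 37.9% to 46.5% for coding exons, 0.416% to 0.843% for 5′ UTRs, 10.8% to 15.2% for the consensus, 11.9% to 23.1% for GAGAGA and 11.8% to 30.2% for GAGAGA in introns. First introns held 20.6% to 27.9%. In each range the list of replicate 2 stood at the end that changed direction or call, except that replicate 1's list made the intron share pass. Within 50 bp the core was near 23.6% and passed (adjusted exact p = 0.046), the consensus near 7.09%, just above the weaker peaks, and within 200 bp 25.6%, also above them. Counting summits within 100 bp, 89.2% and 79.2% of the peaks recurred in replicates 1 and 2, and 85.7% in replicate 2 at an overlap of 50% of the peak. First introns of any transcript held 38.7%. Alternatives added after seeing the data included windows of 30 to 40% GC, where GAGAGA was at 10.7%, GAGAGA in introns at 10.8% and the core at 32.5%, below the weaker peaks, and peaks at most 50% soft-masked, where introns held 47.3% and passed. Keeping only peaks found in both replicates, or the stronger of overlapping peaks, changed no call on features or motifs. The other 63 tested values kept their direction and side of the threshold. The causes were not tested. Library depth, which the sources used here do not give, limits which weak peaks could be ranked.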

Other observations

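Short sequences other than the named motifs also differed in share between the strong and the weaker in-gene summits. The 6-base sequence ACACAC (or GTGTGT) lay within 100 bp of 15.1% of the strong and 6.20% of the weaker summits, and AGAGAC (or GTCTCT) of 15.3% and 6.96%. GCAGAC (or GTCTGC) was near 10.2% and 4.76%. The AC and GT runs beside the core of pqn-41 are an instance of the first. These shares were found by searching all 6-base sequences and carry no test. Only sequences near at least 10% of the strong summits were kept, ordered by the ratio of the 2 shares. Their higher share at strong summits therefore follows in part from this choice. AGAGAC also overlaps GAGAGA in sequence, so it is not separate from that motif.

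Some peaks overlapped a peak of only 1 replicate's list. The strongest without a peak of replicate 1 lay in introns of Y87G2A.25 (pooled height 23.1, rank 34 in replicate 2), R01H2.7 (22.9, rank 381), mlt-7, a peroxidase gene of molting (22.7, rank 1387), attf-3 (22.7, rank 25) and sax-7, a neural adhesion gene (22.1, rank 278). The strongest without a peak of replicate 2 were higher in the pooled list: gcn-1, pxn-1, the second peak of zfp-1 (33.7, rank 94 in replicate 1), elf-1 (31.6, rank 74) and epg-9, an autophagy gene (30.4, rank 127).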
